A study of Mus musculus with 19 samples.

Results

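The constitutive proteasome genes were taken by symbol as every protein-coding gene of the mouse GRCm38 annotation (GENCODE M21) whose name begins with Psma, Psmb, Psmc or Psmd followed by a digit, leaving out the interferon-inducible Psmb8, Psmb9 and Psmb10. The rule found 37 of the 55487 genes in the files, on 16 chromosomes, and no measured value entered it. Of these, 31 encode subunits of the 26S proteasome, of which 14 belong to the 20S core and 17 to the 19S cap. Psmd5, Psmd9 and Psmd10 encode chaperones that help assemble the base of the cap, Psma8 and Psmb11 encode variant core subunits of testis and thymus, and Psmc3ip, which encodes a cofactor of meiotic recombination, matched by name only.

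RNA was sequenced from crypts isolated with EDTA from the small intestine, without its distal end, of 19 C57BL/6 mice of both sexes, aged 10 to 16 weeks, with 1 library per mouse. The groups were NT+/+ fed ad libitum (n = 5), NT-/- fed ad libitum (n = 4), NT+/+ fasted for 48 hours with free access to water (n = 5) and NT-/- fasted in the same way (n = 5), where NT is neurotensin, a gut peptide encoded by Nts. All mice were kept on standard chow before the experiment, and controls were littermates matched for age and sex. The paper describes its fed and fasted mice of both genotypes as carrying an Lgr5-EGFP reporter, whereas the genotype labels name only NT. The study asked how neurotensin and nutrient supply act on crypt proliferation and stem cell function.

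The proteasome degrades proteins tagged with ubiquitin. Its 20S core is a barrel of outer alpha and inner beta rings, in which Psmb5, Psmb6 and Psmb7 supply the chymotrypsin-like, caspase-like and trypsin-like activities. The 19S cap binds ubiquitin chains, removes them, and unfolds the substrate with a ring of ATPases before passing it into the core, and in the fast-renewing gut epithelium this machinery carries much of the turnover of cell cycle and signalling proteins.

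Library depth ran from 9059457 to 35068711 counts, and NT-/- Fast 2 and NT-/- Fast 4 were the shallowest libraries. Nts, the targeted gene, had 6.75 to 8.59 CPM (counts scaled to the same library size and given per 1e6) in NT+/+ mice fed ad libitum and 4.98 to 5.71 CPM in fasted NT+/+ mice, against 0.144 to 0.746 and 0.214 to 0.793 CPM in the matching NT-/- groups, so the genotypes did not overlap. NT+/+ Fast 5 was placed by its title, since another of its labels gives the genotype NT-/-, and its Nts level of 5.43 CPM lay within its title group. Among the marker lists, the summed level of 9 enterocyte genes was 4808 to 9263 CPM in NT+/+ mice fed ad libitum and 8928 to 18240 CPM after the fast, and 6935 to 10064 against 16211 to 21593 CPM in NT-/- mice, with 6 and 8 of the 9 called higher. The 6 proliferation genes ran the other way, from 1514 to 1730 down to 984 to 1324 CPM in NT+/+ mice and from 1456 to 1587 down to 866 to 1118 CPM in NT-/- mice, with 3 and 5 of the 6 called lower. The 5 crypt base and stem genes summed to 1698 to 2753 CPM in fed and 1025 to 1986 CPM in fasted NT+/+ mice and to 1503 to 2389 and 965 to 1375 CPM in NT-/- mice, with 1 and 2 of the 5 called lower. This list was split in direction, and a sum follows its most abundant genes. In NT+/+ mice 3 of the 5 had log2 fold changes above 0 (range -0.63 to 0.63), and in NT-/- mice 1 of 5 (-0.92 to 0.12), with 0 called higher. Of 4 goblet genes 1 and 3 were called lower, and of 4 Paneth genes 0 in either genotype. For comparison, 10.4% of all genes tested were called lower and 11.2% higher in NT+/+ mice, and 12.6% and 12.5% in NT-/- mice. Markers of stroma, smooth muscle and endothelium summed to at most 5.65, 3.91 and 2.45 CPM in any mouse.

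The 250 bases before the annotated start are shown for the 3 members called lower after the fast in both genotypes and for Psmb6, a catalytic subunit whose log2 fold change lay near 0. The sequences are RefSeq's on GRCm38.p6, read 5′ to 3′ along each gene's own strand, and capitals mark CCAAT boxes (CCAAT, or ATTGG on the other strand) and cores of the antioxidant response element (TGANNNNGC, or GCNNNNTCA on the other strand), the letters bound by NRF1 or NRF2 with small MAF proteins. The windows are Psma1, chr7:114276117-114276366 on the minus strand, Psmc6, chr14:45329574-45329823 on the plus strand, Psmd2, chr16:20651402-20651651 on the plus strand, and Psmb6, chr11:70525107-70525356 on the plus strand.
Psma1: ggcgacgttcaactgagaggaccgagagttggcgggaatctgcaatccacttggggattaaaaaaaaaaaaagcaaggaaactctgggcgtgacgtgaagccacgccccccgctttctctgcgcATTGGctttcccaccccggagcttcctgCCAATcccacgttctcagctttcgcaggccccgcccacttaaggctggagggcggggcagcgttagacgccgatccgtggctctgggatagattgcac
Psmc6: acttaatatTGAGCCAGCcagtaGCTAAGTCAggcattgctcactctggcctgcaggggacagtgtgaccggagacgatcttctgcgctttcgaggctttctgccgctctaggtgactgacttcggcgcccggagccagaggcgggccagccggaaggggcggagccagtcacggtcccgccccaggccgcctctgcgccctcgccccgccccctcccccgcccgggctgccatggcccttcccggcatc
Psmd2: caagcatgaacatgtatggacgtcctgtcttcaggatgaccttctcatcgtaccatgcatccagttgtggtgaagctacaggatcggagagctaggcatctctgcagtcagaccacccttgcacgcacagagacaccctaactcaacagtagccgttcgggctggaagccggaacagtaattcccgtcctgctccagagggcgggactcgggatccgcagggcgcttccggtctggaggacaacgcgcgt
Psmb6: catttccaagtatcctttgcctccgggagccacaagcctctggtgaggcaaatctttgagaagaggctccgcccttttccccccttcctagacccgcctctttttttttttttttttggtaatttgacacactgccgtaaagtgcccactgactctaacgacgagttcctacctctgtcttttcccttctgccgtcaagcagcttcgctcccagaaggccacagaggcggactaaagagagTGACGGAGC
Psma1 held 2 CCAAT boxes, Psmc6 held 2 antioxidant cores at the far end of its window, Psmb6 held 1 such core next to the start, and neither set of letters was in the Psmd2 window. A window was given for 30 of the 37 members. CCAAT on either strand was in 13 of these 30 (43.3%), against 37.5% of the 27025 genes with a window, and the antioxidant core was in 13 of 30 (43.3%), against 38.7%. A match is a description of letters and not a bound site. In GENCODE M21 the gene models of Psma1 (chr7:114264606-114276118) and Psmc6 (chr14:45329788-45349705) begin inside these windows, so their last bases are transcribed in some models.

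Per transcript length, each of the 31 26S subunits matched by the rule lay in the upper part of the crypt transcriptome. The mean level over all mice was between 34.4 TPM (transcripts per 1e6 transcripts) for Psmd12, a lid subunit, and 157 TPM for Psmb4, a structural beta subunit, a 4.56-fold span with a median of 65.2 TPM. All 31 lay above the median gene tested, which had 7.02 TPM, and the lowest of them lay at the 83.0th percentile. The 20S subunits had a median of 78.5 TPM and the 19S subunits one of 54.7 TPM. Psmb4 had 102, 82.9, 87.9, 82.7 and 84.7 CPM in fed and 93.6, 76.7, 82.1, 69.9 and 84.2 CPM in fasted NT+/+ mice, and 95, 85.5, 77.7 and 83.8 CPM in fed and 83.4, 80.1, 71.2, 71.7 and 89.9 CPM in fasted NT-/- mice, which all overlapped. Within the core, Psmb4 was followed by the alpha subunits Psma7 at 115 TPM and Psma4 at 109 TPM, and Psma2, also an alpha subunit, was lowest at 43.2 TPM. The catalytic subunits ran in the order Psmb6 at 101 TPM, Psmb7 at 70.7 TPM and Psmb5 at 55.5 TPM. The ATPase ring was led by Psmc3 at 94.4 TPM, with Psmc2 lowest at 39.9 TPM. The assembly chaperones Psmd5 (15.4 TPM), Psmd9 (14.2 TPM) and Psmd10 (9.7 TPM) lay below all 31 of these subunits, and Psmc3ip had 3.45 TPM. Psma8 and Psmb11 reached at most 1 count in any mouse, or 0.0682 and 0.0986 CPM, and were not tested, which left 35 members.

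**Figure D1:**
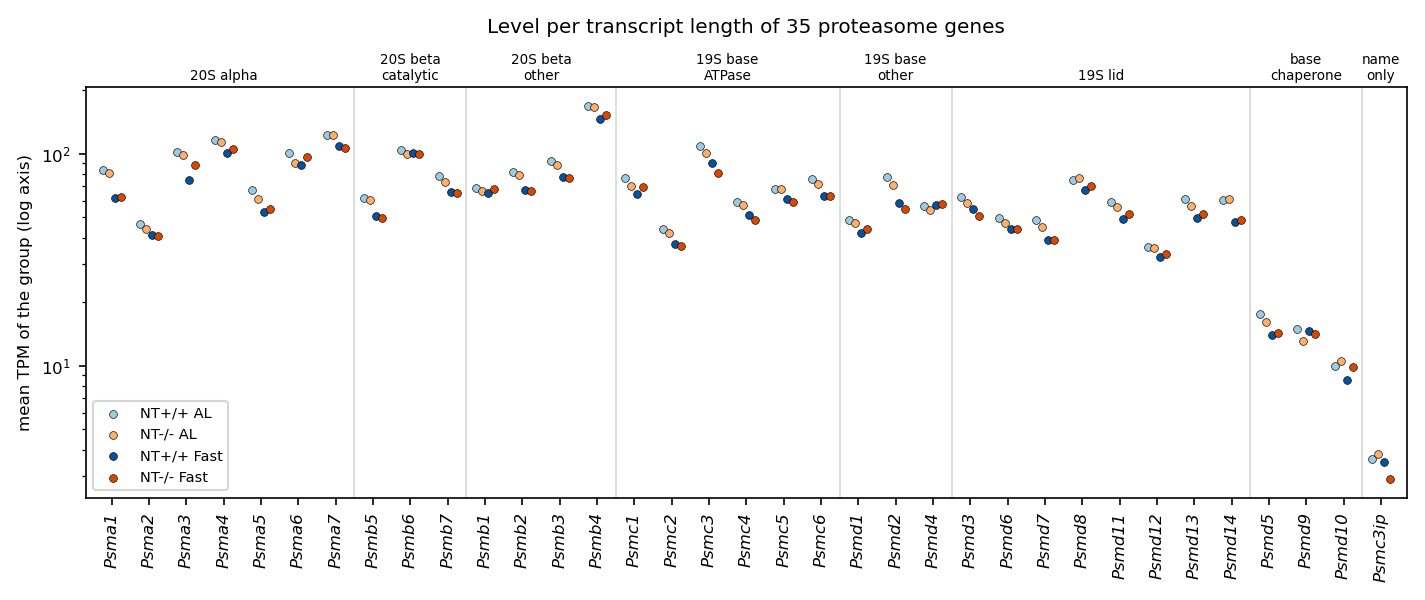
Mean TPM of the 35 members in each of the 4 groups (1 point per group and gene, log axis, no error bars), arranged by place in the particle. The 31 subunits, whose means over all mice lie between 34.4 and 157 TPM, sit above the assembly chaperones and Psmc3ip.

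In NT+/+ mice most proteasome genes had log2 fold changes a little below 0 after the fast, and 5 members passed the test. The members called lower were Psma1, an alpha ring subunit, Psmc6, an ATPase of the base, Psmd2, the large scaffold subunit of the base, Psmd14, the lid's deubiquitinase, and Psmd7, its partner in the lid. These 5 are 14.3% of the 35 members tested, against 10.4% of the 17875 genes tested called lower, and no member was called higher, against 11.2% of all genes (edgeR quasi-likelihood test, Benjamini-Hochberg adjusted over all genes tested). At an unadjusted p under 0.05 the fit held 11 members (31.4%), all lower, against 34.1% of all genes in either direction, and DESeq2 also called 0 higher and 5 lower, against 12.3% and 11% of all genes. The log2 fold change was below 0 for 31 of 35 members (88.6%), against 50.9% of all genes. The median was -0.15 (-9.91%) with a range of -0.44 to 0.13, where the median over all genes tested was -0.01. The subunits moved together from mouse to mouse, as given below, so a count of signs over members is not a test. Among the 7855 genes of the members' own abundance range the median was -0.03, with 16% called lower and 13.6% called higher. Fed and fasted NT+/+ mice of the same title number deviated together, and with the number as a block 11 members were called lower, against 14.1% of all genes: the same 5 plus Psma3, Psma5, Psmb2, Psmb7, Psmc3 and Psmd13.

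Psma1 had 86.4, 72.4, 83.9, 73.8 and 79.1 CPM in the NT+/+ mice fed ad libitum and 64.1, 53.8, 56.5, 50.3 and 67.6 CPM in the fasted ones. Every fasted mouse was below every fed mouse, and the log2 fold change was -0.44 ± 0.08 (SE; adjusted p = 0.00104), a change of -26.1%. Psmc6 had 73.8, 72.4, 75.8, 73.4 and 80.5 CPM with food and 68.7, 60.1, 56.0, 54.4 and 66.6 CPM without. Here too the groups did not overlap, and Psmc6 fell by 0.30 ± 0.08 on the log2 scale (adjusted p = 0.00737). Psma1 and Psmc6 were the only members whose NT+/+ groups did not overlap, 5.71% of the 35 against 6.97% of all genes.

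Psmd2 had 221, 160, 203, 161 and 185 CPM in the fed NT+/+ mice and 161, 134, 145, 125 and 148 CPM in the fasted ones. NT+/+ Fast 1 reached the 2 lowest fed mice and the other 4 lay below all of them, and the log2 fold change was -0.38 ± 0.10 (adjusted p = 0.00882). Psmd14 had 71.3, 58.6, 66.1, 62.5 and 69.8 CPM in the fed mice and 59.2, 54.9, 50.5, 45.4 and 59.2 CPM in the fasted ones. NT+/+ Fast 1 and 5 lay just above the lowest fed mouse, and Psmd14 fell by 0.29 ± 0.09 on the log2 scale (adjusted p = 0.0293). Psmd7 had 70.9, 54.4, 68.0, 60.5 and 63.7 CPM with food and 58.0, 47.1, 58.8, 48.4 and 54.6 CPM without. Only NT+/+ AL 2 among the fed mice lay within the fasted range, and the log2 fold change of Psmd7 was -0.25 ± 0.08 (adjusted p = 0.0324). With any 1 of NT+/+ AL 1, 3 or 5 or NT+/+ Fast 2 or 4 left out, 3 members were called, Psma1, Psmc6 and Psmd2, and without NT+/+ Fast 3 the call for Psmd14 was lost (adjusted p = 0.0662). Without NT+/+ Fast 5, the mouse whose labels disagree, or with it counted as NT-/-, 6 members were called lower, the same 5 plus Psma3.

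None of the 3 catalytic subunits passed the test in either genotype. Under alternatives, Psmb7 passed in NT+/+ mice with a block by the number in the title or in the file name, with upper quartile scaling, with total counts and without NT+/+ Fast 1, and in NT-/- mice Psmb5 passed with the title-number block and with total counts and Psmb7 with total counts. Psmb5, the chymotrypsin-like subunit and the target of proteasome inhibitors, had 53.2, 39.4, 50.7, 38.6 and 41.5 CPM in the fed NT+/+ mice and 46.5, 33.8, 40.9, 29.2 and 40.3 CPM in the fasted ones. The groups overlapped, and the log2 fold change was -0.23 ± 0.13 (adjusted p = 0.235). Psmb7 had 91.0, 69.7, 77.2, 71.9 and 75.1 CPM with food and 75.6, 62.4, 69.6, 57.3 and 68.8 CPM without, with -0.21 ± 0.08 (adjusted p = 0.0862). Psmb6 had 72.0, 57.8, 68.2, 57.7 and 60.1 CPM against 68.6, 61.3, 70.3, 58.1 and 62.7 CPM. The Psmb6 groups covered nearly the same range, at 0.02 ± 0.08 (adjusted p = 0.866). The member with the highest fold change was Psmd4, the ubiquitin receptor of the base, at 0.13 ± 0.07 (adjusted p = 0.186). Medians by place in the particle ran from -0.21 for the catalytic subunits and -0.18 for the ATPase ring to -0.15 for the lid and for the alpha ring, and -0.14 for the other base subunits. Psmb6, Psmd4 and Psmd9 were the members above 0 in both genotypes.

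In NT-/- mice the same direction was seen and 3 members were called lower, Psma1, Psmc6 and Psmd2. They are 8.57% of the 35 members, against 12.6% of all genes tested called lower, and none was called higher, against 12.5% of all genes. At an unadjusted p under 0.05 there were 8 members (22.9%), all lower, against 36.5% of all genes in either direction, and DESeq2 called 0 higher and 2 lower, against 14.3% and 12.2% of all genes. The median was -0.15 (-9.98%) with a range of -0.38 to 0.13, beside a median of -0.02 over all genes. Below 0 were 30 of 35 members (85.7%), against 52.4% of all genes. With total counts in place of TMM scaling, 13 members were called lower, against 17.1% of all genes lower and 9.6% higher. Fed and fasted NT-/- mice with the same number in their file names deviated together in 4 of 4 pairs (correlation 0.177 to 0.436), and with that number as a block 14 members were called lower (40%), against 17% of all genes. In the members' abundance range the median was -0.04, with 18.4% called lower. The 2 genotypes were compared with separate fed and fasted mice, and 29 members were below 0 in both.

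Psma1 had 75.9, 68.0, 78.7 and 81.0 CPM in the fed NT-/- mice and 60.7, 53.7, 55.9, 55.4 and 65.9 CPM in the fasted ones. The groups did not overlap, with a log2 fold change of -0.38 ± 0.09 (adjusted p = 0.00391). Psmd2 had 179, 173, 161 and 176 CPM with food and 150, 124, 116, 122 and 151 CPM without, again with no overlap, and fell by 0.37 ± 0.10 on the log2 scale (adjusted p = 0.0118). Without both shallow libraries, NT-/- Fast 2 and 4, the call for Psma1 remained and Psmd2 had an adjusted p of 0.0814. Psmc6 had 67.9, 71.3, 70.6 and 81.1 CPM against 62.4, 56.1, 59.0, 60.8 and 69.8 CPM. NT-/- Fast 5 lay among the fed mice for this gene, and the log2 fold change was -0.24 ± 0.08 (adjusted p = 0.0344). This call was lost in 11 of 31 alternatives, in which the log2 fold change was -0.26 to -0.18. These were DESeq2 (adjusted p = 0.0518), no filter (0.0594), only the compared groups in the fit (0.0744), both shallow libraries left out (0.158), and any 1 of NT-/- AL 2, 3 or 4, NT-/- Fast 2, 3 or 4 or NT+/+ Fast 2 left out (adjusted p = 0.0539 to 0.131). Psma7, Psmb2 and Psmd7 also had no overlap between fed and fasted NT-/- mice although they did not pass the test. Psmd7, for example, had 58.5, 55.8, 57.7 and 64.8 CPM with food and 54.4, 48.8, 54.4, 47.9 and 55.5 CPM without. With Psma1 and Psmd2 this made 5 such members of 35 (14.3%) against 10.8% of all genes.

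The catalytic subunits of the NT-/- mice lay close to those of the NT+/+ mice. Psmb5 had 50.1, 44.2, 40.3 and 40.5 CPM with food and 44.3, 34, 29.1, 34.4 and 40.9 CPM without, at -0.26 ± 0.14 (adjusted p = 0.188). Psmb7 had 72.5, 71.2, 70.8 and 74.9 CPM against 73.2, 60.8, 59.2, 61.4 and 69.2 CPM, where NT-/- Fast 1 lay within the fed range and the other 4 lay below it (-0.16 ± 0.09; adjusted p = 0.208). Psmb6 had 66.7, 56.9, 63.8 and 59.7 CPM against 69.0, 56.2, 58.7, 59.2 and 66.1 CPM, and its log2 fold change was 0.00 ± 0.08 (adjusted p = 0.984).

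**Figure D2:**
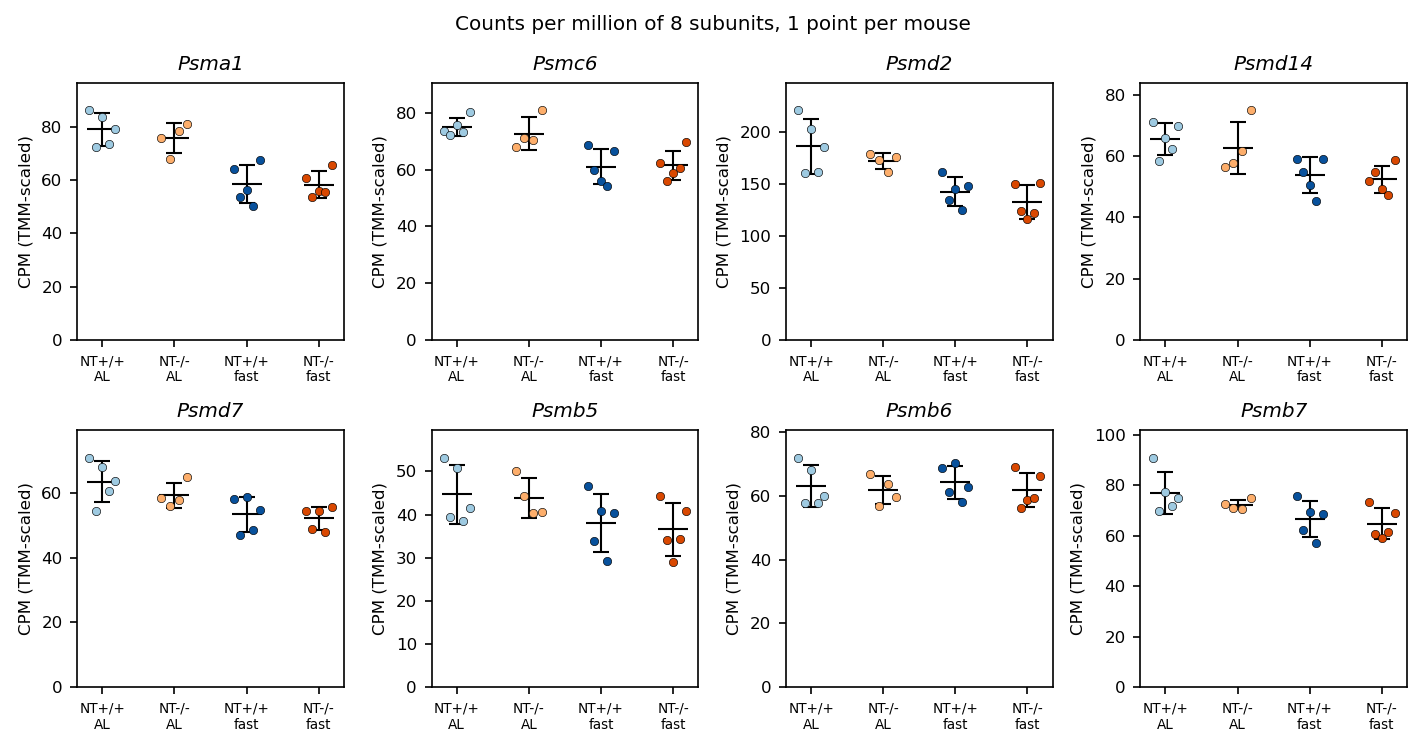
CPM in each mouse for Psma1, Psmc6, Psmd2, Psmd14, Psmd7 and the catalytic Psmb5, Psmb6 and Psmb7, with 1 point per mouse and bars of the group mean ± SD. Fasted mice lie below fed mice of the same genotype for Psma1, whereas the Psmb6 groups cover the same range.

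**Figure D3:**
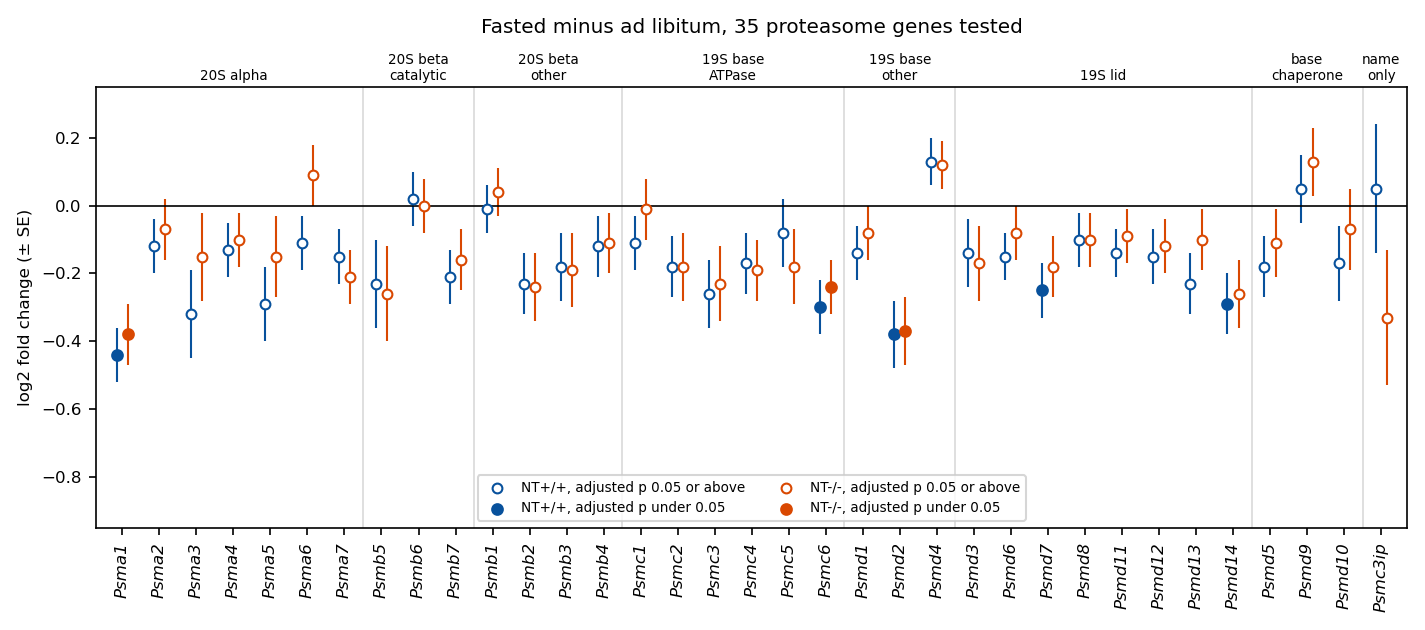
Log2 fold change of fasted against ad libitum mice for the 35 members tested, with bars of 1 SE, for NT+/+ (blue) and NT-/- (orange) mice, ordered by place in the particle, with filled points for an adjusted p under 0.05. Most points lie a little below 0, with Psma1 at -0.44 and -0.38 the lowest in each genotype.

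Summed over the 31 subunits, the fed NT+/+ mice had 2284, 2332, 2334, 2337 and 2516 TPM (mean 2361, SD 89.6) and the fasted NT+/+ mice 2108, 2074, 2018, 1957 and 1906 TPM (mean 2013, SD 82.7). The fed NT-/- mice had 2034, 2292, 2110 and 2614 TPM (mean 2262, SD 258) and the fasted ones 1857, 2135, 1933, 2080 and 2173 TPM (mean 2036, SD 135). On this TPM scale the NT+/+ groups were apart and the NT-/- groups overlapped. On the CPM scale used for the tests, the groups of both genotypes overlapped. There the mean log2(CPM + 1) of the 31 subunits was taken relative to fed NT+/+ mice. It was -0.15 to 0.17 in fed and -0.34 to -0.05 in fasted NT+/+ mice, and -0.1 to 0.02 and -0.28 to -0.06 in NT-/- mice. The median 20S subunit had 1.42 times the TPM of the median 19S subunit in fed NT+/+ mice, 1.45 times in fed NT-/- mice, 1.32 times in fasted NT+/+ mice and 1.38 times in fasted NT-/- mice. These sums come from bulk crypts, in which fewer cells of a type and less RNA per cell cannot be told apart. The summed enterocyte, proliferation and crypt base marker levels given above moved with the fast as well, with the crypt base genes split in direction. The part of these markers in the proteasome values was not tested.

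No proteasome gene passed the test between genotypes in either nutrient state. With food, no member was called between NT-/- and NT+/+, against 0.00559% of all genes. None had an unadjusted p under 0.05, against 1.67% of all genes. DESeq2 also called 0, against 0.00559% of all genes higher and 0.0112% lower. The log2 fold changes ran from -0.13 to 0.14 with a median of -0.04. Here too 31 of 35 members were below 0 (88.6%), against 50.4% of all genes, although none was called. Without NT+/+ AL 1 this count was 18 of 35. The smallest p belonged to Psma6, an alpha ring subunit, with 87.3, 73.7, 93.1, 78.8 and 81.6 CPM in NT+/+ mice and 74.0, 66.6, 79.7 and 83.5 CPM in NT-/- mice. The groups overlapped, at -0.13 ± 0.09 (adjusted p = 1). Next came Psmd7 at -0.10 ± 0.09 and Psmd9, a chaperone, at -0.12 ± 0.10. Psmd9 had 20.6, 15.7, 20.4, 18.2 and 16.4 CPM against 18.2, 17.5, 17.5 and 14.1 CPM, and its low NT-/- value came from NT-/- AL 4.

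After the fast no member was called between genotypes either, again against 0.00559% of all genes. At an unadjusted p under 0.05 there were 0 members, against 9.14% of all genes and 12.1% of those in the members' abundance range. DESeq2 called 0 members, against 0.459% of all genes higher and 0.106% lower. Psmd10, a chaperone also known as gankyrin, had the smallest p. It had 12.8, 9.35, 9.31, 9.42 and 12.2 CPM in NT+/+ mice and 13.3, 10.8, 11.7, 11 and 12.7 CPM in NT-/- mice, which overlapped (0.17 ± 0.11; adjusted p = 0.695). Psmc3ip had 3.24, 3.27, 3.6, 3.54 and 2.8 CPM against 2.83, 1.93, 4.39, 2.47 and 2.11 CPM, and Psmd3, a lid subunit, had 114, 91.2, 121, 94.5 and 101 CPM against 113, 88.6, 89.2, 85.1 and 103 CPM. Neither pair of groups separated, at -0.24 ± 0.19 for Psmc3ip and -0.12 ± 0.10 for Psmd3. The effect of the fast differed between genotypes for 0 members, against 0% of all genes, and DESeq2 also called 0, against 0%. At an unadjusted p under 0.05 there were 0 members, against 2.71% of all genes. The smallest unadjusted p of this difference was 0.106, for Psma6 (a difference of 0.20 ± 0.12). Psma6 was at -0.11 ± 0.08 after the fast in NT+/+ mice and at 0.09 ± 0.09 in NT-/- mice.

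**Figure D4:**
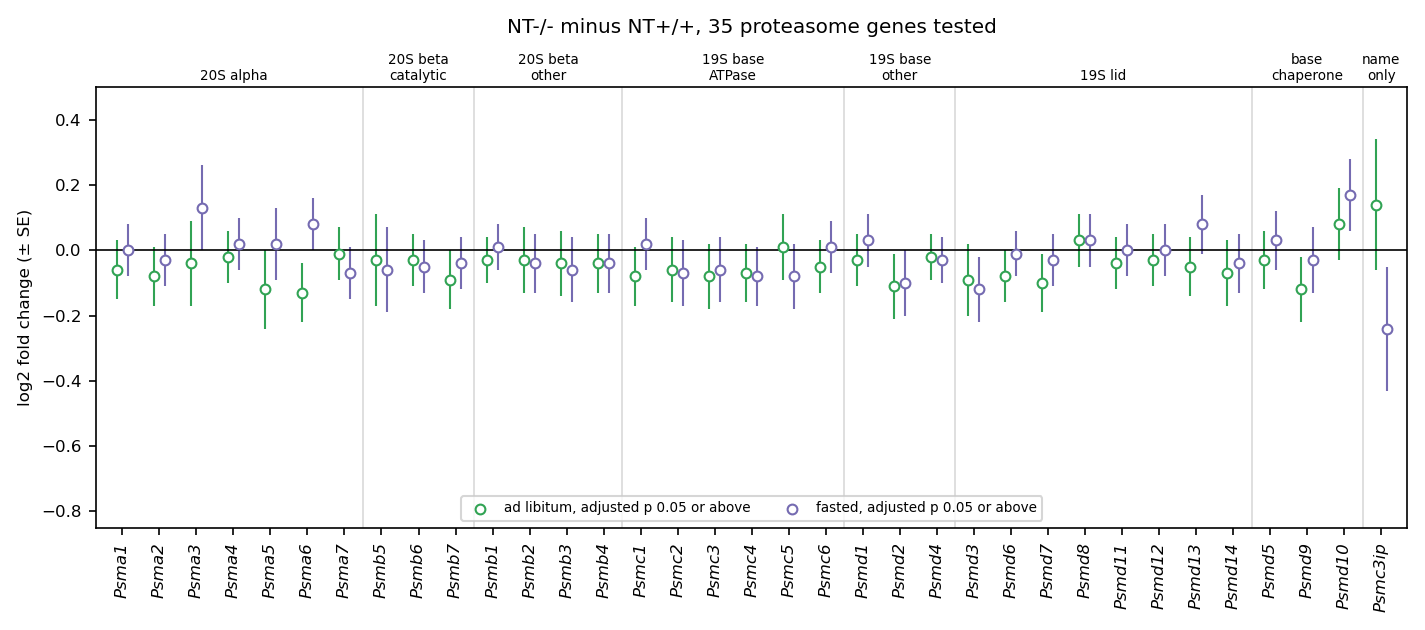
Log2 fold change of NT-/- against NT+/+ for the 35 members, with bars of 1 SE, in mice fed ad libitum and in fasted mice. The points lie between -0.24 and 0.17 and no member passed the test.

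Within groups, the subunits of the particle moved up and down together from mouse to mouse. Over the 19 mice, as deviations from each group's mean, the 465 pairs of 26S subunits had a median Pearson correlation of 0.717, and 95.1% of them were above 0. For the 7821 other genes of the same abundance the median was 0.0424. These points share library, depth and scaling, and the values depended on the scale, at 0.56 against 0.0915 with CPM on total counts and 0.578 against 0.309 with TPM. Against the mean of the other subunits, Psma7 (0.954) and Psmd2 (0.951) had the highest correlations and Psma3, an alpha subunit, had the lowest (-0.0899). All other subunits were at 0.564 or above. Psma3 had 75.6, 83.8, 78.9, 78.0 and 85.3 CPM in the fed NT+/+ mice and 63.6, 62.3, 49.1, 62.8 and 84.9 CPM in the fasted ones, where NT+/+ Fast 5 was far above the other 4. NT+/+ AL 1 had 29 of 31 subunits above its group's mean and a mean deviation of 0.17 on the log2 scale, whereas NT+/+ Fast 4 had 1 of 31 above and a mean of -0.17. Which mouse was high also depended on the scale, since NT+/+ AL 1 lay at -0.04 on the TPM scale.

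**Figure D5:**
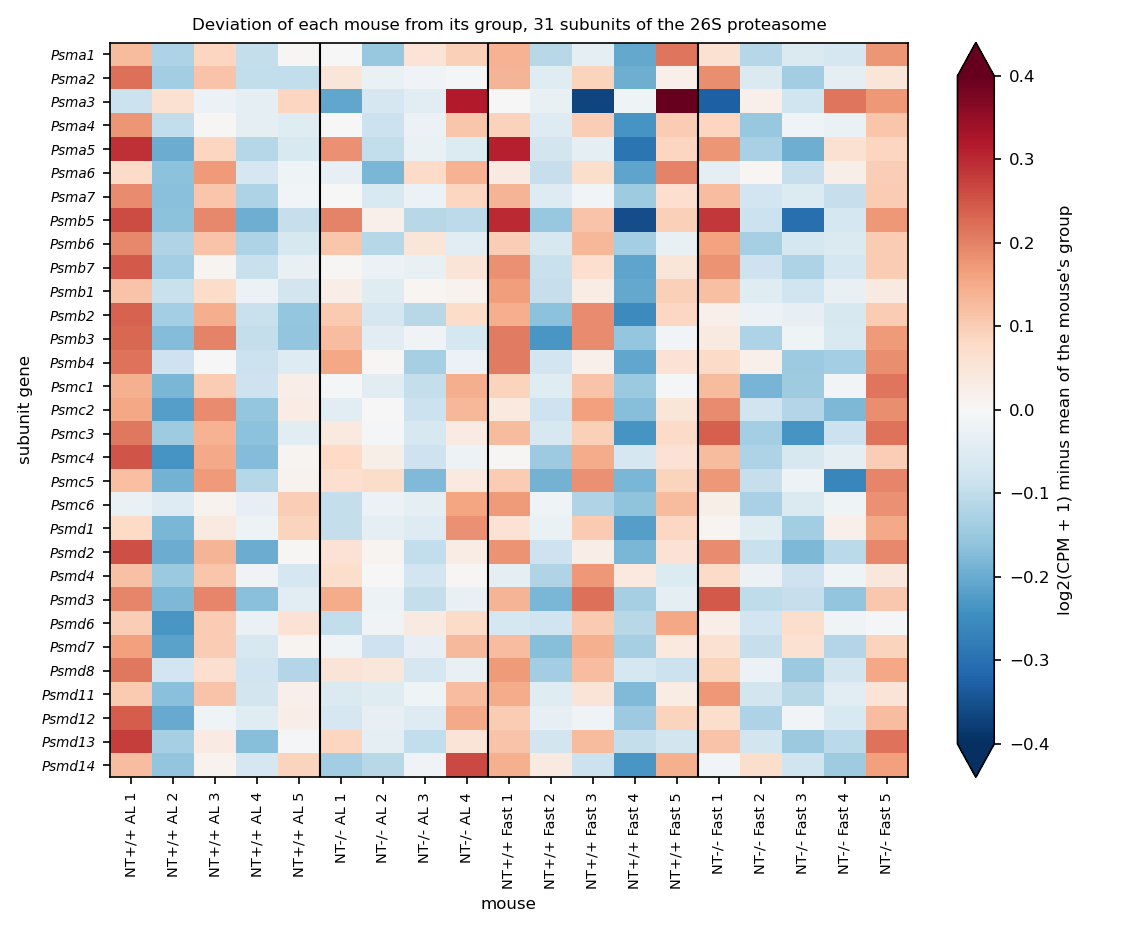
Heat map of log2(CPM + 1) minus the mean of the mouse's group, with 1 column per mouse and 1 row per subunit, red above and blue below the group mean. NT+/+ AL 1, NT+/+ Fast 1 and NT-/- Fast 5 are red in nearly all rows, NT+/+ Fast 4 is blue in nearly all, and the Psma3 row departs from the others.

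The lists of partner genes held 52 genes, of which 51 were tested. In NT+/+ mice 1 of these rose (1.96%, against 11.2% of all genes) and 10 fell (19.6%, against 10.4%), with a median of -0.10. In NT-/- mice 6 rose (11.8%, against 12.5%) and 8 fell (15.7%, against 12.6%), with a median of -0.07. Of 5 genes for chaperones of 20S assembly, 3 fell in NT+/+ mice, Psmg1 by 0.41 (adjusted p = 0.0388), Psmg2 by 0.36 (adjusted p = 0.0294) and Pomp by 0.19 (adjusted p = 0.0411) on the log2 scale. In NT-/- mice Psmg1 fell by 0.53 (adjusted p = 0.0111) and Psmg4 rose by 0.40 (adjusted p = 0.0271). Of the 10 genes for other subunits and bound partners of the proteasome, 3 were called lower in NT+/+ mice and 2 in NT-/- mice. Usp14, a deubiquitinase of the cap, fell by 0.34 in NT+/+ mice (adjusted p = 0.00298) and by 0.29 in NT-/- mice (adjusted p = 0.0115). Ube3c, a ubiquitin ligase of the cap, fell by 0.24 in NT+/+ mice (adjusted p = 0.00607) and in NT-/- mice by 0.22 (adjusted p = 0.0129). Among the 5 genes for activators and an inhibitor, Psme4, which encodes the activator PA200, fell by 0.29 in NT+/+ mice (adjusted p = 0.0179). It was at -0.21 in NT-/- mice (adjusted p = 0.0981).

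Of the 3 immunoproteasome genes, which replace the catalytic subunits under interferon, 2 were called lower in NT+/+ mice and 1 in NT-/- mice. None was called higher. The shares of all genes called lower were 10.4% and 12.6%. Psmb10 fell by 0.58 in NT+/+ mice (adjusted p = 0.00591) and by 0.46 in NT-/- mice (adjusted p = 0.0276). Psmb9 fell by 0.61 in NT+/+ mice (adjusted p = 0.0059) and was at -0.38 in NT-/- mice (adjusted p = 0.0838). Psmb8 passed in neither, at -0.38 in NT+/+ mice and 0.03 in NT-/- mice. The T and intraepithelial lymphocyte markers, which mark cells that also carry these genes, summed to 62.7 to 140 and 61.9 to 210 CPM in fed and fasted NT+/+ mice and to 72.4 to 125 and 123 to 208 CPM in NT-/- mice. Of these 5 markers, 4 were above 0 in NT+/+ mice with 0 called, and 5 in NT-/- mice with 1 called higher. The 3 myeloid markers summed to 20.7 to 27.4 CPM in fed and 12.7 to 17.5 CPM in fasted NT+/+ mice and to 15.9 to 20.5 and 11.7 to 16.4 CPM in NT-/- mice, with 1 of 3 called lower in each genotype. The 3 B and plasma cell markers summed to 4.56 to 10.6 and 2.66 to 10.9 CPM in NT+/+ mice and to 2.65 to 15.7 and 2.16 to 8.33 CPM in NT-/- mice, with none called. The part of these cells in the immunoproteasome values was not tested.

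Upstream of the proteasome the called genes went in both directions. Of all genes tested, 11.2% were called higher and 10.4% lower in NT+/+ mice, and 12.5% and 12.6% in NT-/- mice. At an unadjusted p under 0.05 in either direction there were 34.1% and 36.5% of all genes. Of the 4 ubiquitin genes, Ubb and Rps27a, which encode ubiquitin precursors, rose by 0.43 (adjusted p = 0.00814) and 0.40 (adjusted p = 0.0145) in NT-/- mice, and 0 of 4 passed in NT+/+ mice, with 2 at an unadjusted p under 0.05. Uba6, a ubiquitin-activating enzyme, fell by 0.53 in NT+/+ mice (adjusted p = 0.00492) and by 0.47 in NT-/- mice (adjusted p = 0.0139). The muscle atrophy ligase gene Fbxo32 rose by 0.99 in NT-/- mice (adjusted p = 0.0026) and was at 0.44 in NT+/+ mice. Fbxo21, another F-box gene, rose by 0.47 in NT+/+ mice (adjusted p = 0.00946), the only partner gene called higher there, and by 0.36 in NT-/- mice (adjusted p = 0.0475). Fbxo30 fell by 0.36 in NT-/- mice (adjusted p = 0.0462) and was at -0.31 in NT+/+ mice (adjusted p = 0.0749). Of the 9 genes for shuttle receptors and the p97 complex, 0 passed in NT+/+ mice (3 at an unadjusted p under 0.05), and the calls in NT-/- mice included Ubqln4, which fell by 0.33 (adjusted p = 0.0101), and Ubqln1, which rose by 0.18 (adjusted p = 0.0451). None of the 10 genes of the NRF1 and NRF2 arm, which drives proteasome genes when proteasome activity is low, was called in either genotype. At an unadjusted p under 0.05 there were 0 in NT+/+ mice and 4 in NT-/- mice, 3 higher and 1 lower. No gene of any list passed the test of a difference between genotypes in the effect of the fast.

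Exon bases of 10 members also lie in exons of another gene, and for 5 of them, Psmb7, Psmc3, Psmc3ip, Psmd1 and Psmd13, a gene on the other strand had a mean count of 10 or more. The shared bases are 3.47% to 21.2% of the member's exon bases, and the strand setting of the counting is not given in the sources used here, so reads from those bases could not be told apart from those of the partner gene.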

How the data were processed

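RNA depleted of ribosomal RNA was read as single-end reads; per the labels and the methods, the authors trimmed them with Trimmomatic 0.39 and counted genes with RSEM on Ensembl GRCm38. The deposited files give expected counts, which are estimated and need not be whole, and TPM, which is per transcript length; the RSEM version and strand setting are not given in the sources used here. Expected counts were rounded. Symbols came from GENCODE M21, matching 99.53% of 55487 IDs. Genes passing edgeR's filterByExpr (17875) were fitted in edgeR 4.0.16 (R 4.3.3) with TMM scaling and 1 coefficient per group over all 4 groups, followed by quasi-likelihood tests with Benjamini-Hochberg adjustment over all genes tested; a call is an adjusted p under 0.05. CPM uses TMM library sizes, SE was derived from the log2 fold change and its F statistic, and correlations use log2(CPM + 1). The common dispersion corresponds to a variation of 18.9% between mice, and p-values measure the spread between mice with 1 library each. None of the 31 26S subunits among the members had under 300 counts in any mouse.

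Groups came from the sample titles. Title numbers paired NT+/+ fed with NT+/+ fasted mice, since all 5 same-numbered pairs deviated together (correlation 0.219 to 0.565), and all 5 NT+/+ and NT-/- fasted pairs did too (0.149 to 0.546). What the number stands for is not stated. In the NT+/+ groups, mice of the same number also carry the same sex label, so there a block by number also takes up sex. Between fed and fasted NT-/- mice the sex labels differ for title numbers 3 and 4, and NT-/- Fast 5 has no sex label. By file-name numbers 1, 2 and 4, paired NT-/- mice carry the same sex label, so that block takes up sex there too. DESeq2 1.42.0, other scalings and filters, blocks, sex as a covariate and each mouse left out were alternatives. The fit was tested on simulated data. Per-mouse values are given for Psmb5, Psmb6 and Psmb7, for the 3 members with the smallest p in each comparison, and for others chosen after their values were seen. The members, partner lists and marker lists were chosen with earlier results of these data known. The result of 1 gene of the partner lists is not reported here.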

Additional observations from a re-analysis of the deposited data

Results flagged for a closer look

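Of 140 groups of mice tested for a value standing apart, 4 (2.86%) were flagged, from 3 mice, where chance alone gives about 1 in 20. Psmb4 had 102 CPM in NT+/+ AL 1 against 82.7 to 87.9 CPM in the other mice of that group, a gap of 0.736 of the group's range. Psmc5, an ATPase of the base, had 65.9 CPM in NT-/- AL 3 against 76.7 to 78.5 CPM (0.855 of the range). In NT-/- AL 4, Psmd12 had 54.8 CPM against 47.0 to 48.1 CPM (0.854) and Psmd9 had 14.1 CPM against 17.5 to 18.2 CPM (0.837). No member's response to the fast differed between genotypes by the interaction test.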

How the results depend on the processing

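The count of members called lower after the fast in NT+/+ mice (5) was, with the share of all genes called lower in parentheses, 3 with no filter on low counts (4.26%), 8 with at least 10 counts in every mouse (13.8%), 9 with upper quartile scaling (10.6%), 9 with total counts (9.68%), 11 with the replicate block (14.1%), 12 with the block by file-name number (15.7%), and 3 to 7 with each mouse left out. In NT-/- mice (3) it was 2 with no filter on low counts (5.54%) and 2 with DESeq2 (12.2%). It was 5 with at least 10 counts in every mouse (16%), 6 with upper quartile scaling (13.4%) and 13 with total counts (17.1%). The replicate block gave 9 (16.8%) and the block by file-name number 14 (17%). With each mouse left out it was 2 to 5. It was 1 without the 2 shallowest libraries (10.4%), an alternative chosen after seeing the data. NT-/- Fast 5, which has no sex label, was left out of a fit with sex as a covariate. That fit called 5 members lower in NT+/+ mice (10.7%) and 4 in NT-/- mice (11.9%). Leaving out that mouse alone also gave 5 and 4. The cause of the changes in count was not tested. Among NT-/- pairs the title numbers correlated above 0.1 in 2 of 4 (-0.0903 to 0.436), so by title no pairing of these mice is shown. In the title pairs numbered 3 and 4 the sex labels also differ. The file-name numbers, which no label gives, correlated above 0.1 in 4 of 4. Mice paired by them carry the same sex label where both have one. The blocks changed no other call count.

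No member was called higher, and none was called between genotypes or in the interaction, in any alternative. The median change after the fast kept its sign throughout, at -0.20 to -0.11 in NT+/+ and -0.17 to -0.11 in NT-/- mice with each mouse left out, and -0.17 to -0.14 and -0.21 to -0.07 otherwise. Psma1 passed in every alternative in both genotypes (adjusted p 6.51e-05 to 0.0054 and 0.000326 to 0.0348). Psmb6 in NT+/+ mice ran from -0.01 to 0.08 with each mouse left out, reversing without NT+/+ AL 2, AL 4 or Fast 3. Psmd14 and Psmd7 in NT+/+ mice did not pass with no filter (adjusted p = 0.0505 and 0.0729). Standard errors of 0.07 to 0.20 between groups, and 0.10 to 0.27 for the interaction, limit the smallest change that could pass.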
